A study of Mus musculus with 6 samples.

Results

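The proteasome genes were taken as all symbols on the array that begin with Psma, Psmb, Psmc, Psmd, Psme or Psmf followed by a number. The rule found 62 probes of 42 symbols among the 25697 probes and 18138 symbols of the array, and the brightest probe stood for each symbol. Of these, 41 were proteasome genes, and the other was Psmc3ip, a recombination factor caught by its symbol alone. The samples were cochlear tissue, 3 from WT and 3 from Cmah-null mice of strain C57BL/6 (C57BL/6J in the methods) at 12 months of age, each read on 1 Illumina MouseRef-8 v2 array. The Cmah-null mice were of the Cmah tm1Ykoz knockout line and lack the hydroxylase that makes the sialic acid Neu5Gc, and the knockout is not limited to the ear. The labels give neither the sex of the mice nor whether ears or animals were pooled. Signals are given on a log2 scale, and a difference is the Cmah-null mean minus the WT mean.

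The proteasome degrades proteins that carry ubiquitin chains. Its core is a barrel of alpha rings (Psma genes) around beta rings (Psmb genes), and the caps that feed it are made of an ATPase ring (Psmc genes) and non-ATPase subunits (Psmd genes), among them the lid that removes the ubiquitin. Only 3 beta subunits cut proteins, and interferon-gamma leads cells to build in their place the inducible subunits Psmb8, Psmb9 and Psmb10, which form the immunoproteasome that prepares peptides for MHC class I. Other caps, encoded by the Psme genes, open the core without ubiquitin, and Psmf1 was described as an inhibitor.

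The genotypes are those of the labels. The single Cmah probe gave 7.27, 7.28 and 7.87 in WT and 7.95, 7.98 and 7.27 in Cmah-null samples (log2 difference 0.26, adjusted p = 0.80 by limma), and was detected on 3 arrays. It was thus not lower in Cmah-null samples, and since the sources used here do not say whether it lies in the disrupted part of the gene, it does not check the labels. Between 13873 and 15223 probes were detected per array, the fewest on Cmah-null replicate 3. Cmah-null replicates 1 and 2 differed less from each other than any other pair of arrays did. The SD of their log2 differences over all probes was 0.126, against 0.307 to 0.636 for the other pairs. Nothing in the labels says that the samples of a group came from separate animals, so the p values measure the spread between these samples only. Of 14 cochlear markers found on the array, 8 were detected on all arrays, among them Coch, Otos, Gjb2 and Gjb6. The hair cell genes Myo7a and Otof were also among the 8, while the hair cell genes Slc26a5 and Pou4f3 were detected on none.

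Most proteasome genes had lower signals in Cmah-null than in WT cochlear tissue, and most of that came from 1 array. The log2 difference was below 0 for 31 of the 42 symbols and above 0 for 11, with a median of -0.17 against 0.042 over the 9907 symbols detected on all arrays. Of those 9907 symbols 44.9% were lower, against 73.8% of the members. The median signal of the members was 11.21, 11.19 and 11.08 in WT and 11.29, 11.19 and 10.42 in Cmah-null replicates 1, 2 and 3. Cmah-null replicate 1 was slightly above the WT range, replicate 2 inside it and replicate 3 well below it, and without replicate 3 the median difference was -0.057. The 35 members detected on all arrays had a median difference of -0.27, which lay below that of all detected symbols (median of these members minus that of the detected symbols -0.32). When the arrays were scaled to the same median instead of quantile normalized, the median of all detected symbols moved to 0.34. That of all members moved to 0.043 and that of the 35 to 0.21. The gap between the 35 and the detected symbols was then smaller (-0.12). For all 42 members, not all of them detected, the gap was larger (-0.29, in place of -0.21). Of the 9907 detected symbols 1773 were then lower, in place of 4446. Counts and differences given below for this scaling are to be read beside these values.

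On Cmah-null replicate 3, 28 of the 42 members (66.7%) were below all 3 WT arrays, against 33.7% of detected symbols. On Cmah-null replicates 1 and 2 it was 13 and 12 members (31.0% and 28.6%, against 21.8% and 21.2% of detected symbols), with 13 and 10 members above all WT arrays (31.0% and 23.8%, against 30.6% and 28.4%). The arrays also fell into a set with 32 to 34 beads per probe (WT replicate 1, Cmah-null replicates 1 and 2) and a set with 38 or 39 (WT replicates 2 and 3, Cmah-null replicate 3). Within the set with fewer beads the median difference of the members was 0.022, and within the other, which held Cmah-null replicate 3, it was -0.55.

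**Figure D1:**
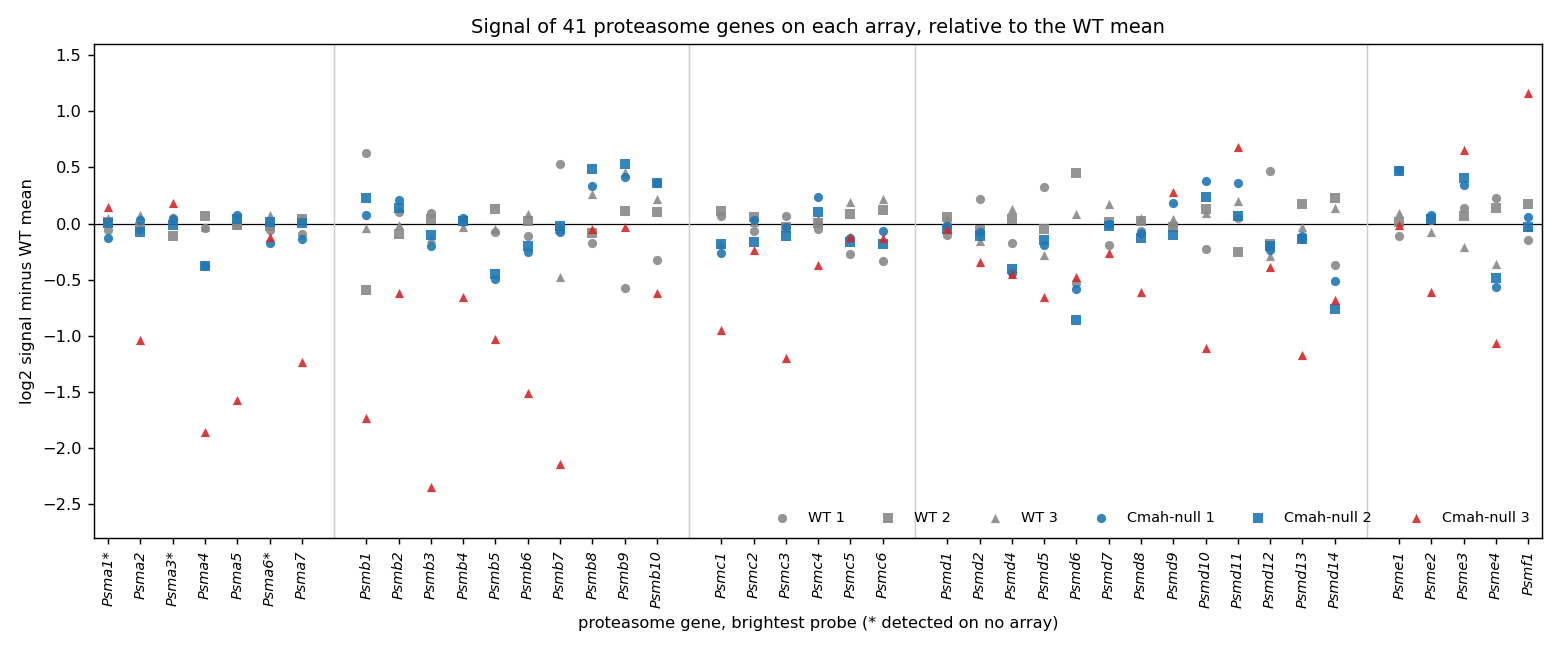
Log2 signal of each of the 41 proteasome genes on each of the 6 arrays, minus the gene's WT mean. Grey points are WT replicates, blue points Cmah-null replicates 1 and 2, and red triangles Cmah-null replicate 3. Red points lie below the WT range for most core, ATPase and lid genes, by more than 2 log2 units for Psmb3, while blue points mostly lie close to the grey ones. Signals are quantile normalized. With scaling to the same median 17 of the 42 members, in place of 31, had a lower Cmah-null mean. Of the 9907 symbols detected on all arrays 1773 did, in place of 4446.

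No member passed an adjusted p of 0.05 in limma, and neither did any of the 25697 probes (0%). The smallest adjusted p among the members was 0.407, for Psmd4. At an unadjusted p under 0.05, which 8.56% of all probes passed, 4 members were lower (Psmb5, Psmd4, Psmd14 and Psme4) and 1 was higher (Psme3). At the study's rule of 1.5-fold with an unadjusted p under 0.05, 3 of the 42 members were lower (7.14%) and 0 were higher. That rule was passed by 1.41% of all probes in the lower direction and 1.3% in the higher direction, and by 2.54% and 2.73% of the symbols detected on all arrays. The 3 members, Psmb5, Psmd14 and Psme4, are on the study's own proteasome list, which was chosen on these samples and is not independent evidence. Without WT replicate 2 the rule left only Psmb5, with 0.926% of all probes lower, and without Cmah-null replicate 3 only Psmd14, with 1.82% of all probes lower. In the fit with the bead set as a block it was passed by 9 members, of which 8 were lower (Psma4, Psmb1, Psmb3, Psmb5, Psmb7, Psmc1, Psmc3 and Psme4) and 1 was higher (Psmf1), while 3.4% of all probes passed in the lower and 3.33% in the higher direction. With scaling to the same median none of the members passed it in the lower direction and 4 did in the higher one (Psmd11, Psme1, Psme3 and Psmf1), against 0.307% and 9.37% of all probes.

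The signals of the genotypes did not overlap for 7 members that were lower in Cmah-null samples (16.7% of the members) and 1 that was higher (2.38%). Among all probes this was so for 7.33% in the lower and 9.11% in the higher direction, and among symbols detected on all arrays for 7.43% and 12.1%. The 7 were Psma4, Psmb5, Psmb6, Psmd4, Psmd8, Psmd14 and Psme4, and the 1 was Psme3. With scaling to the same median the groups of Psmd2 and Psmd6 alone were apart in the lower direction, and those of Psmc5, Psmd11, Psme3 and Psmf1 in the higher one, against 1.07% and 29% of detected symbols. With 1 array left out, overlap is rarer for all genes. Without WT replicate 1, 14 members were apart in the lower and 1 in the higher direction (13.8% and 19.3% of detected symbols). Without WT replicate 3 it was 13 and 3 members (12.6% and 20.7% of symbols), and without Cmah-null replicate 2 it was 11 and 3 (9.55% and 15.2%). Without Cmah-null replicate 3 it was 8 and 9 members (16.6% and 23.6%), so that the members' share in the lower direction, 19%, came near that of all detected symbols.

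Of the 42 members 35 were detected on all arrays. The probes of the core subunits Psma1, Psma3 and Psma6 were detected on none and give no level. Psmd2 was detected on 1 array, Psmc6 on 3, and Psmd5 and Psme2 on 5. In these bulk samples fewer cells of a type and less RNA per cell cannot be told apart.

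The Psma genes, which build the outer rings of the core and its gate, had a median log2 difference of -0.36, with 5 of 7 below 0 (-0.074 and 4 of 7 with scaling to the same median). Psma4 gave signals of 12.62, 12.73 and 12.64 in WT and 12.29, 12.28 and 10.80 in Cmah-null samples. All Cmah-null values lay below all WT values, by a little on replicates 1 and 2 and by far more on replicate 3, so that the log2 difference of -0.87 (SE 0.41, adjusted p = 0.63 by limma) became -0.38 without that array and -0.39 with scaling to the same median. Psma5 gave 13.45, 13.45 and 13.50 in WT and 13.55, 13.51 and 11.90 in Cmah-null samples. Here Cmah-null replicates 1 and 2 were slightly above the WT arrays and only replicate 3 was below them. The difference of Psma5 was -0.48 (SE 0.46, adjusted p = 0.79), but 0.060 without replicate 3 and 0.031 with scaling to the same median. Psma2 and Psma7 were also far lower on replicate 3, and their differences of -0.36 and -0.46 came to -0.021 and -0.066 without it. Of the other Cmah-null arrays, replicate 2 lay slightly below the WT range for Psma2 and replicate 1 for Psma7. The other probe of Psma7 differed by -0.49, with no overlap, and by -0.14 without replicate 3.

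The 7 Psmb genes of the constitutive core were all lower in Cmah-null samples, with a median log2 difference of -0.65 that came to -0.053 without Cmah-null replicate 3 (5 of 7 lower, median -0.17, with scaling to the same median). Every one of the 7 was below all WT arrays on that replicate. Psmb3, a structural beta subunit, had the lowest difference of all members. Its signals were 12.88, 12.82 and 12.65 in WT and 12.59, 12.68 and 10.44 in Cmah-null samples. Cmah-null replicate 2 lay within the WT range and replicate 3 more than 2 log2 units below it, and the difference of -0.88 (SE 0.61, adjusted p = 0.72 by limma) was -0.15 without replicate 3 and -0.41 with scaling to the same median. Psmb1, Psmb2 and Psmb4, further structural subunits, differed by -0.48, -0.090 and -0.20, and by 0.15, 0.17 and 0.036 without replicate 3.

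The subunits with a cutting site were set against their inducible counterparts. Psmb5, the chymotrypsin-like subunit, is replaced by Psmb8 in the immunoproteasome, Psmb6, the caspase-like one, by Psmb9, and Psmb7, the trypsin-like one, by Psmb10. In GRCm38 the constitutive genes lie apart on chromosomes 14, 11 and 2, and Psmb10 on chromosome 8. Psmb8 (chr17:34198195-34201454) and Psmb9 (chr17:34182030-34187330) lie in the MHC on chromosome 17, where Psmb9 starts back to back with Tap1, the peptide transporter of class I presentation.

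Psmb5 gave signals of 10.40, 10.61 and 10.43 in WT and 9.98, 10.02 and 9.45 in Cmah-null samples. All Cmah-null arrays were below all WT arrays, and replicates 1 and 2 lay close together. The log2 difference was -0.66 (SE 0.17, 1.58-fold lower, unadjusted p = 0.010 and adjusted p = 0.45 by limma), -0.47 without replicate 3 and -0.25 with scaling to the same median. Psmb6 gave 12.35, 12.49 and 12.55 against 12.21, 12.27 and 10.95. The groups did not overlap, but the gap between the lowest WT and the highest Cmah-null array was small, and the difference of -0.65 (SE 0.36, adjusted p = 0.67) was -0.23 without replicate 3 and -0.17 with that scaling. Psmb7 gave 12.08, 11.50 and 11.07 in WT against 11.47, 11.52 and 9.41, so that Cmah-null replicates 1 and 2 fell inside a wide WT range. Its difference was -0.75 (SE 0.63, adjusted p = 0.77), and its 3 probes gave -0.75 to -0.60, but it was -0.053 without replicate 3 and -0.29 with that scaling.

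The inducible subunits were above all WT arrays or near the highest of them on Cmah-null replicates 1 and 2, and within or below the WT range on replicate 3. Psmb8 gave 7.64, 7.73 and 8.07 in WT and 8.14, 8.30 and 7.76 in Cmah-null samples. Its signals were dim, though detected on all arrays. Its difference was 0.26 (SE 0.18, adjusted p = 0.73 by limma), 0.41 without replicate 3 and 0.56 with background correction (neqc). Psmb9 gave 9.35, 10.03 and 10.38 against 10.33, 10.45 and 9.89, with WT replicate 1 the lowest array. The difference of 0.30 (SE 0.30, adjusted p = 0.80) was 0.47 without Cmah-null replicate 3 but 0.018 without WT replicate 1. Psmb10 gave 10.68, 11.12 and 11.24 against 11.37, 11.38 and 10.39. Its difference was 0.033 (SE 0.31, adjusted p = 0.98) and had no fixed direction, being 0.36 without Cmah-null replicate 3, -0.13 without WT replicate 1 and -0.033 on its other probe. With scaling to the same median the differences of Psmb8, Psmb9 and Psmb10 were 0.38, 0.71 and 0.51. The median of all detected symbols was 0.34 there, in place of 0.042, so Psmb8 lay close to it.

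**Figure D2:**
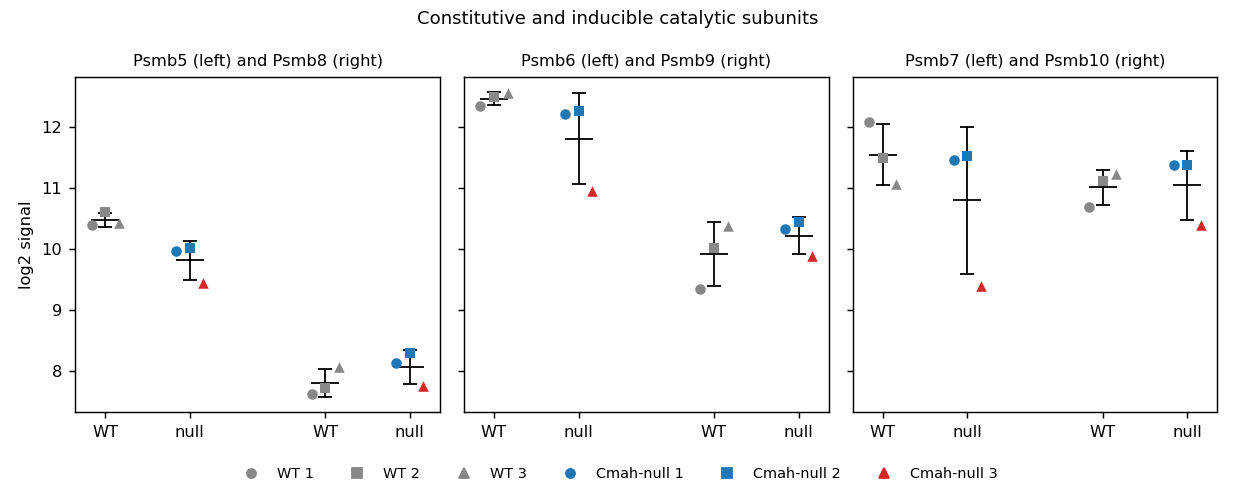
Log2 signals of the 3 constitutive catalytic subunits (left of each panel) and their inducible counterparts (right of each panel) in WT and Cmah-null samples. Points are single arrays, and black bars give the mean and SD of 3 arrays. Cmah-null replicate 3 (red) is the lowest Cmah-null array for all 6 genes, and Psmb5 and Psmb6 have no overlap between genotypes. Levels of different genes come from different probes and are not to be compared.

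Set against each other within an array, the inducible subunits were higher relative to the constitutive ones in every Cmah-null sample than in any WT sample. The mean log2 signal of Psmb8, Psmb9 and Psmb10 minus that of Psmb5, Psmb6 and Psmb7, relative to its WT mean, was -0.47, 0.0074 and 0.46 in WT and 0.65, 0.69 and 1.32 in Cmah-null samples. The WT arrays spread as widely as the genotypes differed, and WT replicate 3 came near to Cmah-null replicate 1. The difference between genotypes was 0.89 on the log2 scale, a 1.85-fold change of the ratio (SD 0.47 in WT and 0.38 in Cmah-null, n = 3 each). It was 0.67 without Cmah-null replicate 3, 0.65 without WT replicate 1, 1.14 and 1.09 within the sets with fewer and more beads, and 0.77 with scaling to the same median. No p is given for this score, since its genes were picked with earlier results known.

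By pair, the ratio of Psmb8 over Psmb5 was the steadiest, though Psmb8 was dim. Relative to its WT mean the log2 ratio was -0.10, -0.21 and 0.31 in WT and 0.83, 0.94 and 0.97 in Cmah-null samples, a difference of 0.92 that changed to 0.89 without Cmah-null replicate 3. Psmb9 over Psmb6 gave -0.46, 0.082 and 0.37 against 0.67, 0.73 and 1.48, a difference of 0.96. In both pairs the genotypes did not overlap. Psmb10 over Psmb7 gave -0.86, 0.15 and 0.70 against 0.44, 0.39 and 1.52, a difference of 0.78, and there WT replicate 3 lay above Cmah-null replicates 1 and 2.

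**Figure D3:**
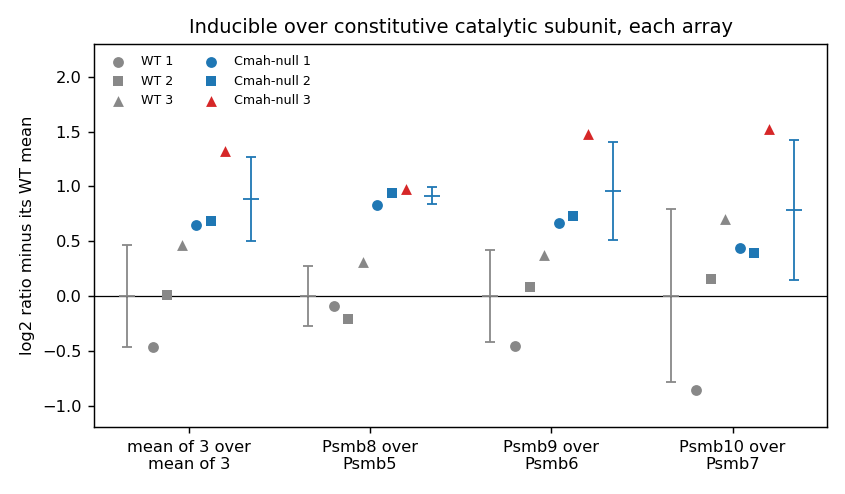
Log2 ratio of inducible over constitutive catalytic subunits on each array, minus the WT mean of that ratio, for the means of 3 genes and for each pair. Points are arrays, and the bars beside them give the mean and SD of 3 arrays per genotype (grey WT, blue Cmah-null). Psmb8 over Psmb5 separates the genotypes by the widest gap, while Psmb10 over Psmb7 overlaps.

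The starts of Psmb5, Psmb6 and Psmb9 are shown because Nfe2l1 and Nfe2l2 are known to act on proteasome genes through antioxidant response elements, whose core was searched as TGACNNNGC, while Psmb9 shares its start region with a gene of class I presentation. Both strands of 250 bases before to 50 after the start were read in the RefSeq promoter table (GRCm38), in which 37 of the 42 members had an entry. TGACNNNGC was found in 6 of the 37 (16.2%: Psmb5, Psmb6, Psmc6, Psmd9, Psmd12 and Psme4), against 14.0% of all 27025 genes. This share was not tested. The lines below give, 5′ to 3′ on the gene's strand, the 120 bases before the starts of Psmb5 (chr14:54617996-54618115, minus strand) and Psmb6 (chr11:70525237-70525356, plus strand) with the match to TGACNNNGC in capitals. The last line gives the 225 bases between the starts of Psmb9 and Tap1 (chr17:34187331-34187555, plus strand), which hold no match to it.
Psmb5: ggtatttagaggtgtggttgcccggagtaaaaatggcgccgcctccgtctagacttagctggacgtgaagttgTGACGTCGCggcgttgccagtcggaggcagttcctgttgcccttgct
Psmb6: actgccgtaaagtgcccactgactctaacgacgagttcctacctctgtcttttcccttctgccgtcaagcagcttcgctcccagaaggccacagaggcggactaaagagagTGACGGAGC
Psmb9 to Tap1: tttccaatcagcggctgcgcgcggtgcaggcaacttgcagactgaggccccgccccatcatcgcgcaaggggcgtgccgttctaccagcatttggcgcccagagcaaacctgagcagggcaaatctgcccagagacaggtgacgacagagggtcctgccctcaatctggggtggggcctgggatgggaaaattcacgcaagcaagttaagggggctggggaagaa

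The matches lie at -47 to -39 in Psmb5 and -9 to -1 in Psmb6, counted back from the start that the table uses. They are descriptions of sequence, and no binding was measured here. Psmb7 was not matched in the table.

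The 6 Psmc genes, the ATPases that unfold substrates, were all lower in Cmah-null samples, but by little, with a median log2 difference of -0.13 (2 of 6 lower with scaling to the same median). Psmc1 had the lowest difference. Its signals were 11.18, 11.22 and 10.92 in WT and 10.84, 10.92 and 10.16 in Cmah-null samples, so that Cmah-null replicate 2 met the lowest WT array. The difference was -0.46 (SE 0.22, adjusted p = 0.63 by limma), -0.22 without Cmah-null replicate 3 and -0.00061 with scaling to the same median. Psmc3 differed by -0.45 (SE 0.32, adjusted p = 0.73), which was -0.072 without that replicate and 0.018 with scaling to the same median. Psmc4 and Psmc2 were the highest of the class at -0.011 and -0.12, and Psmc5 gave -0.14 on its brightest probe and -0.52 on the other.

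Of the 13 Psmd genes 11 were lower, with a median log2 difference of -0.27 (4 of 13 lower, median 0.096, with scaling to the same median). Psmd4 and Psmd14 kept nearly the same differences without Cmah-null replicate 3. Psmd4, the ubiquitin receptor of the cap, gave signals of 13.84, 14.06 and 14.15 in WT and 13.57, 13.61 and 13.57 in Cmah-null samples. The Cmah-null arrays lay close together and all below the WT arrays. The difference was -0.43 (SE 0.098, 1.35-fold lower, unadjusted p = 0.0049 and adjusted p = 0.41 by limma), the same without replicate 3, but 0.053 with scaling to the same median. Psmd14, the deubiquitinase of the lid, gave 10.21, 10.81 and 10.72 in WT and 10.07, 9.83 and 9.90 in Cmah-null samples. The groups did not overlap, WT replicate 1 being the nearest to the Cmah-null arrays. The difference was -0.65 (SE 0.18, 1.57-fold lower, unadjusted p = 0.011 and adjusted p = 0.47), -0.63 without Cmah-null replicate 3 and -0.24 with scaling to the same median.

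Psmd6, a lid subunit, gave 8.04, 9.01 and 8.65 in WT and 7.98, 7.70 and 8.09 in Cmah-null samples. Cmah-null replicate 3 lay just above WT replicate 1, and the difference of -0.64 (SE 0.26, adjusted p = 0.58 by limma) was -0.72 without that Cmah-null array. Psmd8, also of the lid, gave 12.22, 12.31 and 12.34 against 12.21, 12.16 and 11.68. The genotypes were barely apart, with a difference of -0.27 (SE 0.16, adjusted p = 0.68) that was -0.11 without Cmah-null replicate 3 and 0.22 with scaling to the same median. At the other end of the class, Psmd11, a lid subunit, gave 9.12, 8.82 and 9.28 in WT and 9.43, 9.14 and 9.76 in Cmah-null samples, with overlap. Its difference was 0.37 (SE 0.19, adjusted p = 0.65 by limma), and -0.051 on its other probe. It was 0.66 with scaling to the same median, against a median of 0.34 over all detected symbols. Psmd9 and Psmd10, chaperones that help assemble the ATPase ring rather than lasting subunits, differed by 0.12 and -0.17. The difference of Psmd10 was 0.31 without Cmah-null replicate 3. Its other probes gave -0.38, with no overlap, and -0.31, or -0.10 and -0.066 without that replicate. Over the whole family 11 symbols had several probes detected on all arrays, which gave differences of the same sign for 9 and of opposite sign for Psmb10 and Psmd11.

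Of the 5 genes of the alternative caps and the inhibitor 2 were lower in Cmah-null samples and 3 higher, with a median log2 difference of 0.31 (also 2 and 3 with scaling to the same median). Psme4, the activator tied to degradation of acetylated histones, gave 12.85, 12.76 and 12.26 in WT and 12.06, 12.14 and 11.56 in Cmah-null samples. The groups did not overlap, and the lowest array in each was replicate 3. The log2 difference was -0.71 (SE 0.22, 1.63-fold lower, unadjusted p = 0.020 and adjusted p = 0.53 by limma), -0.53 without Cmah-null replicate 3 and -0.21 with scaling to the same median. Psme3, the nuclear activator, gave 10.48, 10.41 and 10.13 in WT and 10.69, 10.75 and 10.99 in Cmah-null samples, and was the only member whose Cmah-null arrays all lay above the WT arrays. The difference was 0.47 (SE 0.13, 1.38-fold higher, unadjusted p = 0.013 and adjusted p = 0.48 by limma), and 0.38 without Cmah-null replicate 3. It was 0.92 with scaling to the same median, against a median of 0.34 over all detected symbols.

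Psme1 and Psme2 form the activator that interferon-gamma induces together with the immunoproteasome. Psme1 gave 11.60, 11.72 and 11.80 in WT and 12.19, 12.18 and 11.69 in Cmah-null samples. Replicates 1 and 2 lay above all WT arrays and replicate 3 inside their range, as for Psmb8. The difference was 0.31 (SE 0.16, adjusted p = 0.64 by limma), 0.30 on its other probe and 0.48 without replicate 3. Psme2 was dim and differed by -0.16, or by 0.060 without replicate 3. Psmf1 gave 11.00, 11.31 and 11.11 against 11.20, 11.11 and 12.30. On this probe its difference of 0.39 (SE 0.33, adjusted p = 0.77 by limma) came from Cmah-null replicate 3 and was 0.012 without it. The other probe of Psmf1 differed by 0.22, and by 0.16 without replicate 3. The differences of Psme1, Psme2 and Psmf1 were 0.81, -0.078 and 0.91 with scaling to the same median, where that of all detected symbols had a median of 0.34.

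Factors that assemble or bind the proteasome were read from a list of 26, of which 20 were found. Of these 15 were lower and 5 higher, with a median log2 difference of -0.13, and 3 were detected on no array. The rule of 1.5-fold with an unadjusted p under 0.05, which 2.54% of detected symbols passed in the lower direction, was passed by 1 of the 20. That was AI314180, the gene of the adaptor Ecm29, with 10.70, 11.45 and 11.00 in WT and 10.16, 10.08 and 10.40 in Cmah-null samples (log2 difference -0.83, SE 0.21, adjusted p = 0.43 by limma). The Cmah-null arrays all lay below the WT arrays, as for 2 of the 20 genes and for 7.43% of detected symbols. Shfm1, the smallest lid subunit and also on the study's list, was apart in the same direction, with 12.78, 13.29 and 13.18 in WT and 12.64, 12.70 and 11.13 in Cmah-null samples (log2 difference -0.93, SE 0.45, adjusted p = 0.63). Pomp, the chaperone of core assembly, differed by -0.41 (SE 0.52) and was lower only on Cmah-null replicate 3. With scaling to the same median 7 of the 20 were lower, as were 1773 of the 9907 detected symbols.

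Among regulators of proteasome genes and ubiquitin genes 7 of 9 were found, and none passed the rule. Their median log2 difference was -0.023 (0.34 with scaling to the same median, as for all detected symbols), and Nfe2l1, the factor that raises proteasome genes when degradation is blocked, differed by 0.037 (SE 0.21). Of 20 genes of class I presentation and interferon signalling 17 were found, 6 lower and 11 higher, with a median of 0.041. The median of all detected symbols was nearly the same (0.042), with 5461 of the 9907 higher. Tap1 gave 7.72, 7.90 and 8.13 in WT and 8.14, 8.32 and 8.18 in Cmah-null samples, and was barely apart (log2 difference 0.29, SE 0.13, adjusted p = 0.60 by limma). B2m, the light chain of MHC class I, and Irf1, a factor of the interferon response, differed by 0.14 (SE 0.49) and 0.050 (SE 0.23). Ifngr2, a chain of the interferon-gamma receptor, was the only gene of the list past 1.5-fold with an unadjusted p under 0.05. It was lower (log2 difference -0.73, SE 0.27, adjusted p = 0.57 by limma), and 2.54% of detected symbols passed the rule in that direction.

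Markers of other cells differed between the same samples. Of 15 leukocyte markers found (Lyzs and Lyz2 are names of 1 gene), 9 were higher in Cmah-null samples and 6 lower, with a median log2 difference of 0.32, and Ptprc was detected on no array. Their median signal was 10.19, 10.89 and 10.52 in WT and 11.26, 11.53 and 9.66 in Cmah-null samples, and their summed linear signal ranged from 74757 to 120771 in WT and from 67883 to 123043 in Cmah-null samples. On Cmah-null replicates 1 and 2 the median was thus above all WT arrays, as were Psmb8 and Psme1. On replicate 3 it was below all WT arrays. The ratio of inducible over constitutive subunits was the highest of the 6 arrays there, without a rise of the inducible ones. Relative to the WT mean, Psmb5, Psmb6 and Psmb7 were at -1.03, -1.51 and -2.14 on that replicate. Psmb8, Psmb9 and Psmb10 were at -0.052, -0.034 and -0.62. The part of leukocytes in the ratio was not tested. All 6 brown fat markers and all 10 skeletal muscle markers were lower in Cmah-null samples, with medians of -1.04 and -0.51. With scaling to the same median it was 6 of 6 and 7 of 10. Of the brown fat markers 3 were detected on all arrays and Dio2 on none, and the muscle gene Myh2 hardly differed (-1.2e-05). The summed brown fat signal was 34349 to 55234 in WT and 6939 to 20519 in Cmah-null samples, lowest on replicate 3, and that of muscle was 200284 to 379258 and 224970 to 228468. All 4 red cell markers were lower too, with a median of -0.60 (2 of 4 with scaling to the same median), and their summed signal was 77895 to 90925 in WT and 76019 to 77830 in Cmah-null samples. Hbb-b1, a beta-globin gene, gave 12.87, 13.53 and 13.51 in WT and 12.68, 12.78 and 11.43 in Cmah-null samples, with no overlap (adjusted p = 0.58 by limma). The part of these tissues in the lower core signals was not tested.

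The signals of Cmah-null replicate 3 also varied with the base at which a probe starts in its transcript. The array annotation gives the base at which each probe starts, and the 9907 detected symbols were cut by it into 4 bins of about equal size. In the bin with the smallest values, up to base 1178, replicate 3 was below the WT mean by a median of 0.29 (median log2 signal minus WT mean -0.29), and in the next bins the medians were 0.070, 0.19 and 0.31. On Cmah-null replicates 1 and 2 together the median in the first bin was 0.0079. Over the 35 members detected on all arrays the probes started at a median of base 1013, against 2039 over all detected symbols. Of these members 25 lay in that first bin. Their median on replicate 3 was -0.66, lower than that of the bin, with a range from -2.35 to 0.68 and 23 of 25 below the WT mean. The 7 members of the next bin had a median of -0.26. The probes of the catalytic subunits start at bases 430 (Psmb5), 480 (Psmb6), 433 (Psmb7), 456 (Psmb8), 716 (Psmb9) and 867 (Psmb10), all in the first bin. Of these, the probes of Psmb9 and Psmb10 start latest, and no trend within the bin was examined. Transcript lengths were not read, so the start of a probe and the length of its transcript cannot be told apart here. The part of either in the signals of replicate 3 was not tested.

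**Figure D4:**
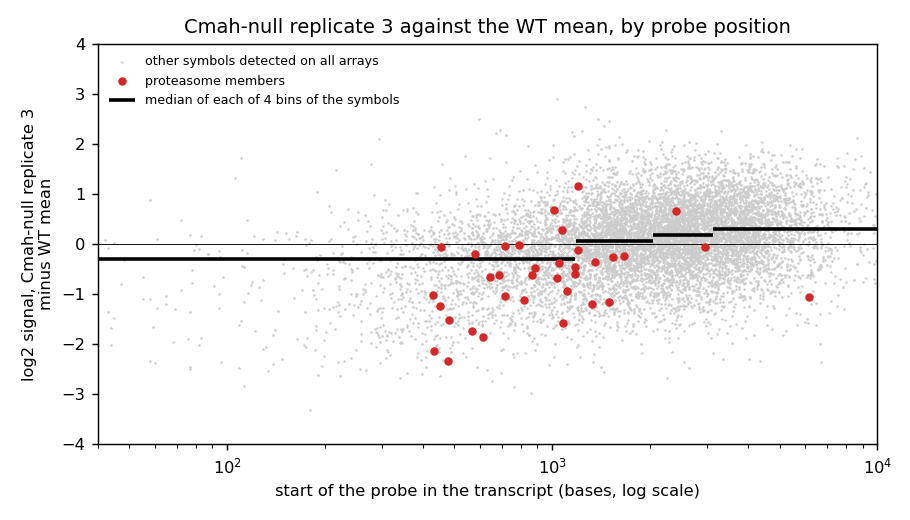
Log2 signal of Cmah-null replicate 3 minus the WT mean against the base at which the probe starts in its transcript (log axis). Grey points are other symbols detected on all arrays, red points the 35 proteasome members, and black lines the median of each of 4 bins of the symbols. The medians go from -0.29 in the first bin to 0.31 in the last, and most red points lie in the first bin and below its median. Outside the axes lie 172 symbols, none of them a member.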

How the data were processed

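Total RNA from cochlear tissue was amplified, biotin labelled and hybridised, with an array for each sample. As deposited, the first table gives for each probe the average bead intensity, how many beads carried it and a detection p value from the scanner software. The authors' second table holds log2 values, which were checked to equal quantile-normalized log2 intensities without background correction (largest difference 5e-07). Its group columns are named WT and old, and the latter were taken as Cmah-null by elimination and number. Another 12 per-sample columns, which repeat signals and detection p values, were not used, nor were the authors' fold changes and test values.

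Genotypes were compared over all probes by eBayes on lmFit models with no covariate (R 4.3.3, limma 3.58.1), two-sided, adjusting by Benjamini-Hochberg over the 25697 probes, after a check on simulated data. A probe was detected at a detection p under 0.05, and the brightest probe, by mean log2 value, stood for a symbol. Named were all catalytic subunits, activators and the inhibitor, members past 1.5-fold with an unadjusted p under 0.05 or without overlap, the extremes of each class, the study's proteasome list, and set genes of the pathway lists, others being given as part of a class. Members, lists and tests were chosen with earlier results of these data known. With 3 against 3 samples an exact permutation test cannot give a p under 0.1. Alternatives were neqc (offset 16), scaling to the same median, a filter (detected on 3 arrays), blocks for beads and replicate number, another variance prior, averages of probes or of Cmah-null replicates 1 and 2, and leaving out each array. The number of arrays limits the precision. Promoter sequences are from RefSeq (GRCm38). Plots used Python 3.11.15 and matplotlib 3.10.9. Of the class I and interferon list, 1 gene entered the counts and is not reported here by itself.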

Additional observations from a re-analysis of the deposited data

How the results depend on the processing

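The count of members at an adjusted p under 0.05 was 0 in every alternative run. The count past 1.5-fold with an unadjusted p under 0.05 was 3, and 9 with the bead set as a block. Leaving out each array gave 1 to 3 for it, 0 to 0 for the adjusted count, -0.29 to -0.057 for the members' median difference, 0.65 to 1.12 for the inducible minus constitutive difference, and 8 to 17 for members without overlap (8 in all 6 arrays, and 13 with Cmah-null replicates 1 and 2 averaged, where fewer samples make overlap rarer). Without Cmah-null replicate 3 the 17 were 8 lower and 9 higher members. The members' median was 0.043 with scaling to the same median, where that of all detected symbols moved from 0.042 to 0.34. The cause of these shifts was not tested. The inducible minus constitutive difference was above 0 in every alternative run.

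Single genes changed sign as follows, where scaling to the same median also moved the median of all detected symbols to 0.34. With scaling to the same median Psma1 was at -0.13, Psma3 -0.074, Psma5 0.031, Psmc2 0.37, Psmc3 0.018, Psmc4 0.50, Psmd4 0.053 and Psmd8 0.22. Psmb10 was at -0.048 with the bead block and at -0.13 with Cmah-null replicates 1 and 2 averaged. Leaving out each array gave -0.062 to 0.077 for Psma1, -0.76 to 0.060 for Psma5, -0.13 to 0.36 for Psmb10, -0.13 to 0.17 for Psmc4 and -0.28 to 0.060 for Psme2. For all of these the cause was not tested.

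Replicate numbers did not pair the samples (correlations of deviations 0.012, -0.15 and -0.0039 for equal numbers). With the replicate number as a block the rule of 1.5-fold gave 3 members, the adjusted p none, and the differences were -0.17 and 0.89. Without Psmc3ip, an alternative chosen after seeing the data, the median was -0.18. Probes near background, 3 of them in the Psma class, limit what can be said of their genes.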
